A study of Mus musculus with 8 samples.

Results

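The circadian clock genes Arntl, Clock, Npas2, Per1, Per2, Per3, Cry1, Nr1d1, Dbp and Bhlhe41 were followed in mouse liver with and without the microRNA miR-223. The 10 genes were taken by symbol or older symbol from the deposited table, where 18 of 40554 non-control probes carried 1 of these names. Of the 10, 9 entered the test across 16750 genes and unnamed probes. Liver RNA came from 4 WT and 4 miR-223KO samples. Both groups were male, on the C57BL/6J background, and had eaten a high-fat diet for 3 months, so no group on another diet was set beside them here. Each sample was hybridised in Cy5 to its own 2-colour array against an assorted mouse total RNA in Cy3. The 8 arrays lay on 2 slides, with WT 1, WT 2, miR-223KO 1 and miR-223KO 2 on slide 1 and the other 4 on slide 2. The labels name no age, no hour of collection and no cell type in which miR-223 was deleted, and they name no mouse for any of the 8 samples. The p-values therefore refer to the spread among samples, which may be technical in part. No probe was named for miR-223, so the deletion itself was not checked here.

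The clock is a feedback loop of transcription. ARNTL (BMAL1) pairs with CLOCK or its relative NPAS2 and switches on the Per and Cry genes, whose proteins return to the nucleus and block that pair. A second loop runs through NR1D1 (REV-ERB alpha), which is switched on by the same pair and represses Arntl, while DBP carries the rhythm to output genes and BHLHE41 (DEC2) represses E-box genes. In liver the transcripts of Arntl and of Nr1d1, Dbp and the Per genes peak at different hours of the day, so the level of each depends on the hour at which a liver is taken.

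The molecule that sets the 2 groups apart is shown first, as RefSeq gives its main mature strand (GRCm38.p6, chrX:96242884-96242905, plus strand), with the seed of bases 2 to 8 in capitals.
mmu-miR-223-3p: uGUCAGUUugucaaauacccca

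Expression was read at 60-base probes, as a log2 ratio of the liver Cy5 signal over the reference Cy3 signal. The following 5 probes are shown because the results on Arntl, Per2, Cry1 and Nr1d1 turn on them, and because 2 probes of Nr1d1 gave different values on the same arrays.
Arntl A_52_P267651: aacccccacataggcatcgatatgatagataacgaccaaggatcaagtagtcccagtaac
Per2 A_52_P536869: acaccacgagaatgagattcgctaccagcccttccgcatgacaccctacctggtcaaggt
Cry1 A_51_P302204: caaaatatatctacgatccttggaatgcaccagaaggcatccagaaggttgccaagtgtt
Nr1d1 A_52_P130952: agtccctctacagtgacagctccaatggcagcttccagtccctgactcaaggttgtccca
Nr1d1 A_51_P223776: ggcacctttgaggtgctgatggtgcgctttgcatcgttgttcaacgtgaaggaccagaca

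The promoters were searched for the letters that factors of the loop bind. RefSeq windows from 250 bases before to 50 bases after a gene's start (GRCm38.p6) were read for 9 of the 10 genes, all but Per2, with 13 windows among them. Both strands were searched for the E-box CACGTG, which ARNTL with CLOCK binds, and for the D-box TTATGNAA, which DBP binds. The last was TNGGTCA, a loose form of the core of the element that NR1D1 and the ROR receptors share. Any base was allowed at its N, so a match need not be such an element. The E-box, D-box and TNGGTCA letters were present in 7.15%, 3.38% and 11% of all 32851 promoter windows. The 250 bases before the start are shown for the 5 genes whose windows held a match, at the most upstream start where a gene had several, with matches in capitals and positions counted back from the start.
Arntl, chr7:113207215-113207464, plus strand: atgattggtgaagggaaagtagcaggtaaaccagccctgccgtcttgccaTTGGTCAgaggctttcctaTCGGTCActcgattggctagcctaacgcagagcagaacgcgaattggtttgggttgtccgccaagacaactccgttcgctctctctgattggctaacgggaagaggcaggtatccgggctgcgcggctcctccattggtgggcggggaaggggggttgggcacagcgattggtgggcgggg
Per1, chr11:69098699-69098948, plus strand: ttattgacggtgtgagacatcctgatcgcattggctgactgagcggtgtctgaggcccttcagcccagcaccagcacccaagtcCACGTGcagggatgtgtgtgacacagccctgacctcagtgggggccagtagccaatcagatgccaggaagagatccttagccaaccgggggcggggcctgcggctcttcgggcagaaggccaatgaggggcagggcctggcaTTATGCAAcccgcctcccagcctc
Per3, chr4:151044666-151044915, minus strand: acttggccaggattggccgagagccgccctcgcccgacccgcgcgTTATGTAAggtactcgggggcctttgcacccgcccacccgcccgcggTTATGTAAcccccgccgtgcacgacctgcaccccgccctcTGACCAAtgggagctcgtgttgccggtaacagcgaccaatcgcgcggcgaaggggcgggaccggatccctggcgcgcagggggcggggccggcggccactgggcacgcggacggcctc
Cry1, chr10:85185055-85185304, minus strand: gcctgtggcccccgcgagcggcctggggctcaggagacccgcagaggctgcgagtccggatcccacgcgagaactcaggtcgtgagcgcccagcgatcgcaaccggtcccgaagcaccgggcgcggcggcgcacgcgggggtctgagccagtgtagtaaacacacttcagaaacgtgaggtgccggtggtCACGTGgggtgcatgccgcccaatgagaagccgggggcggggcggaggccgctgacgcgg
Bhlhe41, chr6:145865421-145865670, minus strand: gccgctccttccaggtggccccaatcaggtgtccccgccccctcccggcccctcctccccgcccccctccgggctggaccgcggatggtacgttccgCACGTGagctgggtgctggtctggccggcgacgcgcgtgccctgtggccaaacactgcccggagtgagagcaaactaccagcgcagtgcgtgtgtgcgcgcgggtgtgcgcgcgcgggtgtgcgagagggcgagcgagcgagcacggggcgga

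E-boxes began at -166 in Per1, at -60 in Cry1 and at -153 in Bhlhe41. D-boxes began at -24 in Per1 and at -205 and -158 in Per3. The loose form of the NR1D1 and ROR core began at -200 and -181 in Arntl and, on the opposite strand, at -118 in Per3. The base at N was T at -200 and C at -181 in Arntl, and T in Per3. The second window of Arntl, chr7:113207261-113207560, held the same 2 matches and a further one, TAGGTCA, that began at 30 after its own start. The windows of Clock, Npas2, Nr1d1 and Dbp held none of the 3 motifs, which says only that these letters are not in these windows.

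None of the 9 clock genes tested passed an adjusted p of 0.05 between miR-223KO and WT (limma, Benjamini-Hochberg over all 16750), against 2 of 16750 in all (0.0119%). None had an unadjusted p under 0.05 (4.67% of all), and in none did the 4 WT and 4 miR-223KO values stand apart (3.09% of all). The log2 fold change was below 0 for 7 of the 9 (51.7% of all), with a median of -0.16 against -0.01 over all tested, and with median centring of the arrays in place of loess it was below 0 for 5 of 9 (36.1% of all, whose median moved to 0.08). Adjusted p-values ran from 0.98 to 1.00 and standard errors (SE) from 0.19 to 0.28. A miss of the threshold does not show equal levels, so each difference is given with its 95% interval. All values are log2 ratios of liver Cy5 over reference Cy3, and differences are miR-223KO minus WT unless said otherwise.

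**Figure D1:**
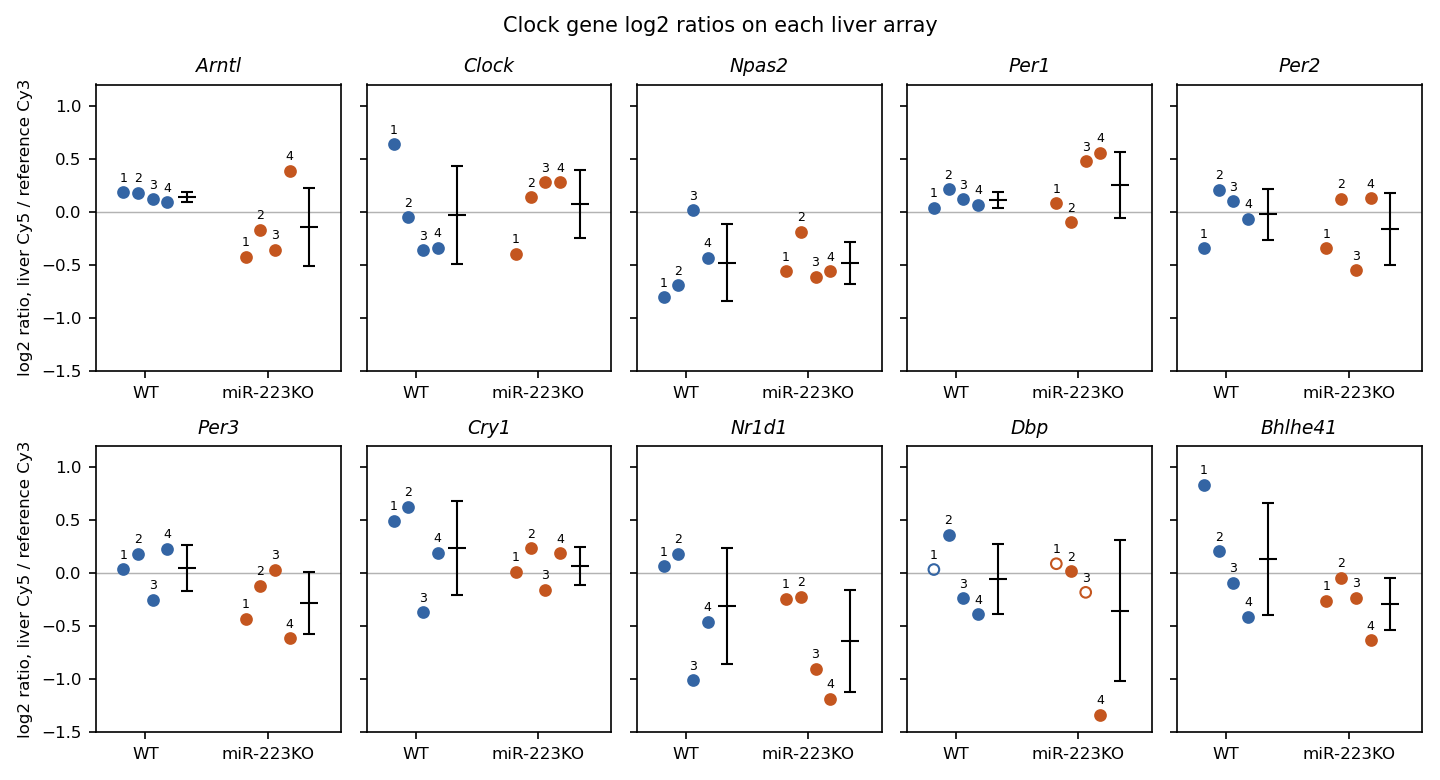
Log2 ratio of liver Cy5 over reference Cy3 (vertical axis) of the 10 clock genes, 1 panel each, in 4 WT (blue) and 4 miR-223KO (orange) arrays numbered by replicate, with the mean ± SD of each group as a bar; open points of Dbp are spots with an outlier flag, here kept. The WT values of Arntl lie within 0.09 to 0.19, and miR-223KO 4 is the lowest array for Dbp, Nr1d1, Per3 and Bhlhe41.

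Of the activators, Arntl had the tightest WT values. Arntl read 0.19, 0.18, 0.12 and 0.09 in WT 1 to 4 and -0.42, -0.17, -0.36 and 0.39 in miR-223KO 1 to 4. Of the miR-223KO arrays, 3 lay below all WT arrays and miR-223KO 4 lay above them all, so the groups overlapped. The means were 0.14 ± 0.05 (SD, n = 4) and -0.14 ± 0.37 (SD, n = 4), a difference of -0.28 (SE 0.20, adjusted p = 0.98 in limma) with an interval from 0.61-fold to 1.10-fold. Without miR-223KO 4 it was -0.46, with an adjusted p of 1.00 and an unadjusted p of 0.025 in limma. It was -0.19 without miR-223KO 1 (unadjusted p = 0.393 in limma) and -0.21 without miR-223KO 3. Arntl was well above background in Cy5 on 4 of 4 WT but 2 of 4 miR-223KO arrays, with raw Cy5 intensities of 71.5 to 168, so it was measured close to the background.

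Clock had 4 probes, of which 2 could be tested. The brightest, A_52_P334670, read 0.63, -0.05, -0.36 and -0.34 in WT and -0.40, 0.14, 0.28 and 0.28 in miR-223KO. WT 1 was the highest array of all and miR-223KO 1 the lowest, and both lay on slide 1. The difference of 0.10 (SE 0.24, interval 0.76-fold to 1.53-fold) was made of -0.42 within slide 1 and 0.63 within slide 2, and without WT 3 it was -0.01. The other probe tested, A_52_P334677, gave -0.06 (SE 0.20). The other 2, too dim to test, were well above background on 3 and on 0 of 8 arrays. Of these, A_52_P161365 read -0.03, -0.02, -0.40 and 0.34 in WT and 0.31, 0.25, 0.17 and 0.21 in miR-223KO, and A_52_P279391 lay within -0.24 to 0.07 on every array. No probe of Clock separated the groups.

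Npas2, which can stand in for Clock, read -0.80, -0.69, 0.02 and -0.43 in WT and -0.56, -0.19, -0.61 and -0.56 in miR-223KO. All but WT 3 were below 0. The group means, -0.48 ± 0.37 in WT and -0.48 ± 0.20 in miR-223KO (SD, n = 4 each), differed by -0.00 (SE 0.21, interval 0.74-fold to 1.35-fold). Within slide 1 the difference was 0.37 and within slide 2 it was -0.38.

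Among the Per genes, which encode the repressors that accumulate and are degraded once a day, Per1 gave a positive difference and Per3 a negative one, both within the spread. Per1, also a gene that responds directly to glucocorticoids, read 0.04, 0.21, 0.12 and 0.07 in WT and 0.08, -0.10, 0.48 and 0.56 in miR-223KO. Both miR-223KO arrays of slide 2 lay above every WT array and the 2 of slide 1 did not. The difference was 0.14 (SE 0.19, interval 0.84-fold to 1.46-fold), with -0.13 within slide 1 and 0.42 within slide 2.

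Per2 was measured by 2 probes, both well above background on all 8 arrays. Its brighter probe, A_52_P536869, read -0.34, 0.21, 0.10 and -0.07 in WT and -0.35, 0.12, -0.55 and 0.13 in miR-223KO, a difference of -0.14 (SE 0.21, interval 0.67-fold to 1.23-fold). The other, A_51_P282760, read -0.29, 0.03, -0.73 and 0.00 in WT and -0.21, 0.56, 0.08 and 0.32 in miR-223KO, a difference of 0.44 (SE 0.22, adjusted p = 0.99 in limma over 23930 probes tested one by one). The 2 probes of Per2 thus pointed in opposite directions. They lay furthest apart on WT 3 and miR-223KO 3, so no direction can be given for Per2.

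Per3 read 0.04, 0.19, -0.25 and 0.23 in WT and -0.43, -0.12, 0.03 and -0.61 in miR-223KO. The 2 lowest arrays were miR-223KO 4 and miR-223KO 1, while WT 3 lay below the other miR-223KO arrays. The difference was -0.33 (SE 0.20, adjusted p = 0.98 in limma, interval 0.59-fold to 1.06-fold), and it was -0.39 within slide 1 and -0.28 within slide 2.

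Cry1, the partner of the PER proteins and the strongest repressor of the loop, read 0.49, 0.63, -0.37 and 0.20 in WT and 0.01, 0.24, -0.15 and 0.19 in miR-223KO. WT held both the 2 highest arrays and the lowest one. The difference was -0.16 (SE 0.22, interval 0.65-fold to 1.23-fold), with -0.43 within slide 1 and 0.10 within slide 2. The second Cry1 probe, with only 1 array of 8 well above background, was too dim to test and ran from -0.41 to 0.18 in WT and from -0.17 to 0.56 in miR-223KO.

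Nr1d1, the repressor of Arntl, had 3 probes, all well above background on all 8 arrays. The brightest, A_52_P130952, read 0.07, 0.18, -1.01 and -0.46 in WT and -0.24, -0.22, -0.90 and -1.18 in miR-223KO. A_51_P223776 read 0.79, 0.25, 0.17 and 0.03 in WT and 0.33, 0.12, -0.12 and -0.53 in miR-223KO. A_52_P130961 read -0.13, 0.18, 0.07 and 0.26 in WT and -0.24, 0.04, -0.29 and -0.80 in miR-223KO. All 3 probes were lowest on miR-223KO 4, and in all 3 the groups overlapped.

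The differences of the 3 Nr1d1 probes were -0.33 (SE 0.28), -0.36 (SE 0.22) and -0.42 (SE 0.20), with an interval from 0.53-fold to 1.19-fold for the brightest and an adjusted p of 0.98 to 0.99 in limma. They had 1 direction but are not 3 replicates, since they share the same RNA. On WT 3 they disagreed, with -1.01 on the brightest probe against 0.17 and 0.07 on the others. Without WT 3 the difference of the brightest was -0.57, with an unadjusted p of 0.048 and an adjusted p of 0.98 in limma. It was -0.15 without miR-223KO 4, -0.17 without WT 2 and -0.21 without WT 1. The interval comes from a fit without slide. With slide as a block the brightest probe kept -0.33, with an SE of 0.18, an unadjusted p of 0.089 and an adjusted p of 0.93 in limma.

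**Figure D2:**
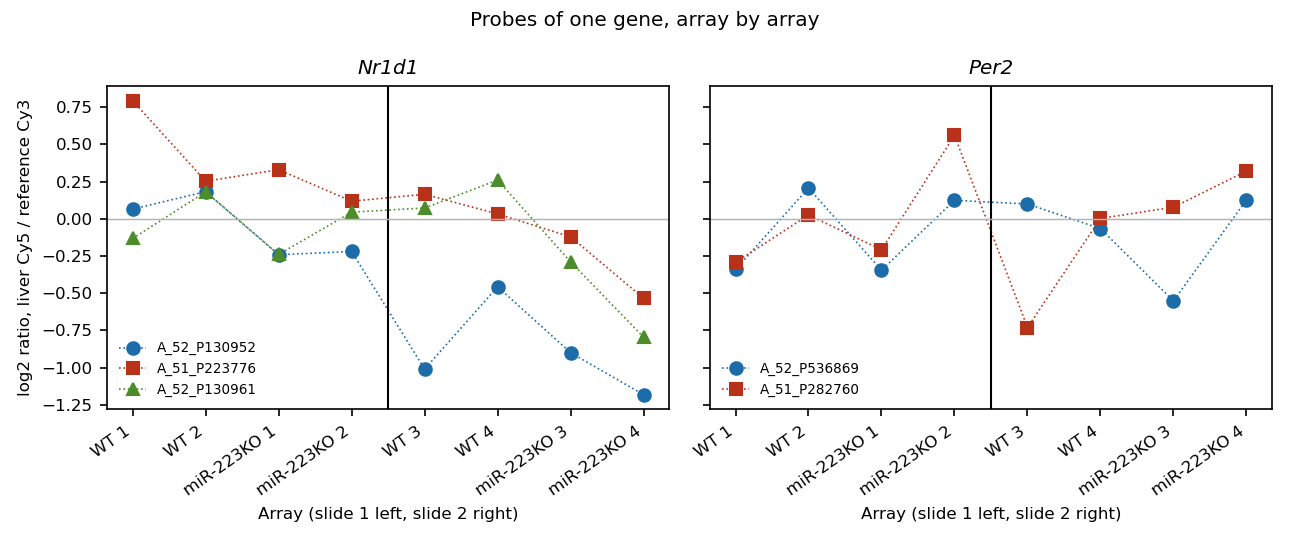
Log2 ratio of liver Cy5 over reference Cy3 (vertical axis) of each tested probe of Nr1d1 (left) and Per2 (right) on the 8 arrays, with slide 1 left and slide 2 right of the black line. The 3 Nr1d1 probes meet at about 0.18 to 0.25 on WT 2 and part on WT 3, where the brightest reads -1.01; the dotted lines join values of 1 probe and stand for no order in time.

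Bhlhe41 had the lowest unadjusted p of the 9, at 0.097 in limma. Bhlhe41 read 0.84, 0.21, -0.09 and -0.41 in WT and -0.26, -0.04, -0.23 and -0.63 in miR-223KO. Only WT 1 and WT 2 lay above all miR-223KO arrays, and WT 4 lay below 3 of them. The means were 0.14 ± 0.53 and -0.29 ± 0.25 (SD, n = 4 each), a difference of -0.43 (SE 0.24, adjusted p = 0.98 in limma, interval 0.52-fold to 1.06-fold). It was -0.67 within slide 1 and -0.18 within slide 2, and without WT 4 it was -0.61, with an unadjusted p of 0.022 and an adjusted p of 0.95 in limma. Without WT 1 it was -0.19, with an unadjusted p of 0.378 in limma. With slide as a block it stayed at -0.43, with an SE of 0.21, an unadjusted p of 0.056 and an adjusted p of 0.93 in limma. The second Bhlhe41 probe was not well above background on any array and read -0.19 to 0.08 on all but WT 3, where it read 0.76.

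Dbp, the output factor whose transcript has one of the widest daily swings in liver, was bright on every array, with raw Cy5 intensities of 791.5 to 4520.5. It was not tested, because 3 of its 8 spots (WT 1, miR-223KO 1 and miR-223KO 3) had an outlier flag, which left 3 WT and 2 miR-223KO values. With those spots kept, Dbp read 0.04, 0.36, -0.23 and -0.39 in WT and 0.09, 0.02, -0.18 and -1.33 in miR-223KO. Of the 8 arrays, 7 lay within -0.39 to 0.36 and miR-223KO 4 lay far below them. The difference was then -0.30 (SE 0.28), with an adjusted p of 0.98 in limma over 17776, where flagged spots were kept for every gene. In the unflagged spots alone the means were -0.09 ± 0.40 (SD, n = 3) and -0.66 ± 0.95 (SD, n = 2).

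Across the members, miR-223KO 4 stood at an end more often than any other array, a point chosen after the values were seen. It was the lowest of 8 arrays for Nr1d1, Per3 and Bhlhe41 and the highest for Arntl and Per1, so for 5 of the 9 tested genes, against 1 to 3 for each other array. Over 14697 genes with a value on all arrays it was the lowest for 14% and the highest for 12.2%. Its share of spots well above background in Cy5, 65.8%, lay within the 49.5% to 69.8% of the 8 arrays. Of the 5 tested hepatocyte markers of 11 listed, 2 had a value on all 8 arrays. Of these, Alb read 1.39 on miR-223KO 4, the lowest of the 8, and Apoa1 read 0.87, above miR-223KO 2 and miR-223KO 3. Whether that level has a part in the clock values was not tested.

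For 2 of the 3 Nr1d1 probes the difference between the slides was larger in size than that between the genotypes, and for A_52_P130961 it was smaller, though the 2 differences were not tested against each other. The brightest probe averaged -0.05 on slide 1 and -0.89 on slide 2, a slide difference of -0.83 (SE 0.18) with genotype in the limma fit, an unadjusted p of 0.000388 and an adjusted p of 0.33. All 4 arrays of slide 2 lay below all 4 of slide 1, and the share of all genes that separated by slide was not counted. The slide difference was -0.49 (SE 0.19) for A_51_P223776, against -0.36 between the genotypes, and -0.15 (SE 0.20) for A_52_P130961, against -0.42. Bhlhe41 followed with -0.52 (SE 0.21, unadjusted p = 0.023 in limma), and Cry1 came next with -0.38 (SE 0.20, unadjusted p = 0.078 in limma). Per1, Npas2 and Arntl gave 0.25, 0.16 and 0.11, and Clock, Per3 and Per2 gave -0.12, -0.07 and -0.01. Of the 9 members, 2 had an unadjusted p under 0.05 between slides, against 9.1% of all tested, and 0 of 9 passed the adjusted p, against 0.00597%. Nr1d2, the paralog of Nr1d1 with the same role, also read lower on slide 2, by -0.56 (SE 0.21, adjusted p = 0.45 in limma).

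**Figure D3:**
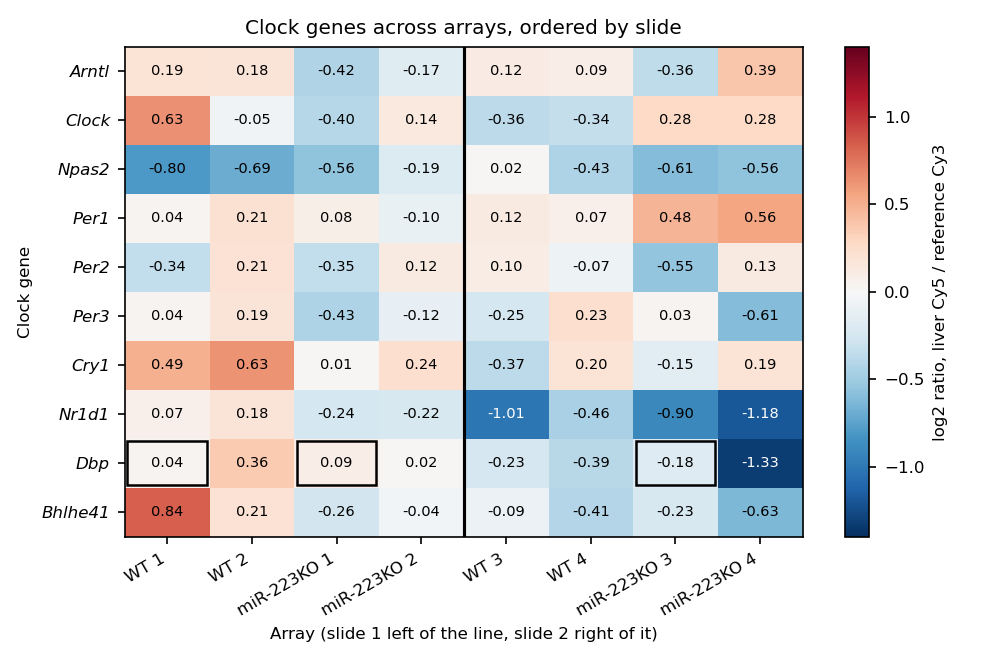
Log2 ratio of liver Cy5 over reference Cy3 (colour and printed value) of the 10 clock genes (rows) on the 8 arrays (columns), slide 1 left and slide 2 right of the black line; boxes mark the 3 Dbp spots with an outlier flag. Nr1d1 lies between -1.18 and -0.46 on the 4 arrays of slide 2 and between -0.24 and 0.18 on the 4 of slide 1.

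The deposited values rest on another background correction and normalisation, and for dim probes they lay further from the values used here. In the authors' deposited table the fold change was 0.97 for Clock A_52_P161365, 0.88 for Cry1 A_52_P420500 and -1.02 for Bhlhe41 A_52_P618912, where the values used here gave 0.26, 0.23 and -0.18. Those 3 probes were well above background in Cy5 on 3, 1 and 0 of 8 arrays. For Arntl, well above background on 6, the authors' deposited table held -0.78 against -0.28 here. That lies below the low end of its 95% interval, -0.70, which does not cover a change of processing. In limma on the deposited values Arntl had an unadjusted p of 0.031 and an adjusted p of 0.82. It was the 1 of 10 members under 0.05 there, against 5.97% of all tested. With a normexp offset of 16 in place of 50, Arntl gave -0.43 (unadjusted p = 0.098 in limma). For Cry1 A_51_P302204, well above background on 7, the deposited table held 0.11 against -0.16 here, the opposite sign. The fold changes of the 10 probes well above background on all 8 arrays, Dbp among them, differed between the sources by at most 0.09. Those of the other 8 probes differed by 0.16 to 0.84.

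**Figure D4:**
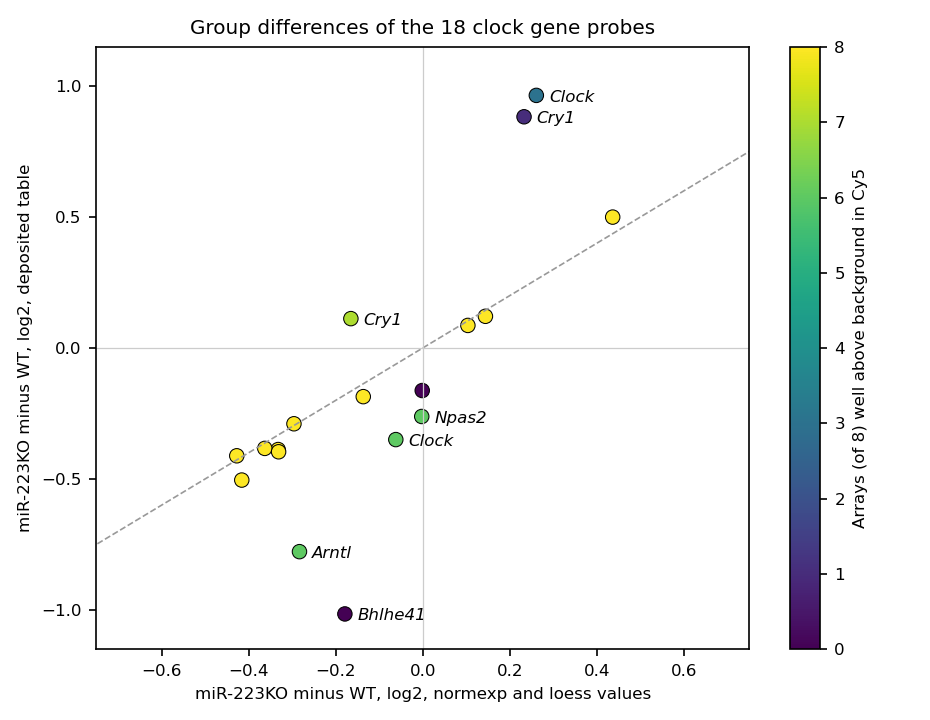
Difference of miR-223KO minus WT on the log2 scale for the 18 clock gene probes, from the background-corrected and loess-normalised values (horizontal axis) and from the authors' deposited table (vertical axis), coloured by the number of arrays out of 8 with Cy5 well above background; the dashed line marks equality. The probes far from the line, Clock at 0.97, Cry1 at 0.88, Arntl at -0.78 and Bhlhe41 at -1.02 in the deposited table, are well above background on 3, 1, 6 and 0 arrays.

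Because the members peak at different hours, it was asked whether they varied together over the 8 arrays. Of 36 pairs of the 9 tested members, 18 had a positive and 18 a negative Pearson r, with a median of 0.03, and 0 passed after Benjamini-Hochberg adjustment (exact two-sided permutation test, lowest adjusted p = 0.75). Of the 36, 2 had an unadjusted p under 0.05. Both involve Nr1d1, which entered here and below through its brightest probe A_52_P130952 alone. That probe read -1.01 on WT 3, where the other 2 Nr1d1 probes read 0.17 and 0.07, and correlations with those probes were not computed. For Cry1 with Nr1d1, r was 0.75 (exact permutation p = 0.0317) and rho 0.81 (exact permutation p = 0.0218), and r fell to 0.55 without WT 2 and WT 3. Here and below, 2 arrays left out together are those farthest from the median of the gene named first. Without miR-223KO 4, r of Cry1 with Nr1d1 was 0.94 (exact permutation p = 0.00337). That setting was chosen after the data were seen, and 0 pairs passed in it. For Nr1d1 with Bhlhe41, r was 0.70 (exact permutation p = 0.0427) and rho 0.76 (exact permutation p = 0.0368). That r was 0.67 without WT 3 and miR-223KO 4, and 0.58 without miR-223KO 4 alone.

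With flagged spots kept, Dbp joined as the 10th gene, and 0 of 45 pairs passed (lowest adjusted p = 0.19, exact permutation). The closest pair was Nr1d1 with Dbp, both of which the ARNTL pair switches on. Its r was 0.79 (exact permutation p = 0.00414) and its rho 0.86 (exact permutation p = 0.0107). That r was 0.74 without WT 3 and miR-223KO 4, and 0.76 without miR-223KO 4 alone. With the slide means removed, r was 0.52 for Nr1d1 with Dbp, 0.55 for Cry1 with Nr1d1 and 0.38 for Nr1d1 with Bhlhe41. Each slide holds 4 arrays, too few for an r within it. The largest r of the 45 pairs with the slide means removed was that of Per3 with Nr1d1, at 0.91, followed by 0.70 for Arntl with Cry1. Over the 8 arrays as measured, Per3 with Nr1d1 had an r of 0.54 (exact permutation p = 0.168) and a rho of 0.57 (exact permutation p = 0.151). That r was 0.51 without miR-223KO 1 and miR-223KO 4, and 0.26 without miR-223KO 4 alone. Arntl and Dbp, which peak at opposite times of day in liver, had an r of -0.47 (exact permutation p = 0.25) and a rho of -0.26 (exact permutation p = 0.536), and r was 0.05 without miR-223KO 4 and -0.79 with the group means removed. All arrays share 1 reference RNA, which leaves r unchanged where it shifts a gene equally on every array. Differences of its Cy3 signal from array to array can still add to any r.

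**Figure D5:**
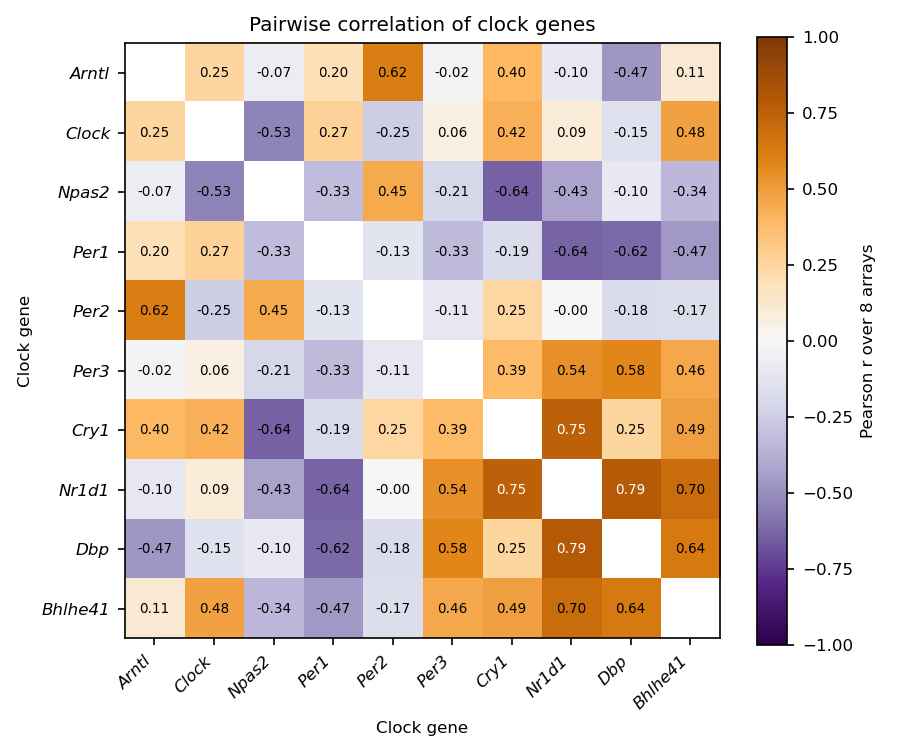
Pearson r over 8 arrays between each pair of the 10 clock genes (both axes list the genes), with spots kept that had an outlier flag and Nr1d1 read by A_52_P130952 alone; orange is positive and purple negative. Nr1d1 with Dbp (0.79), with Cry1 (0.75) and with Bhlhe41 (0.70) are the highest values, and none of the 45 pairs passed after adjustment.

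The genes most like Arntl and Dbp were taken over 12846 named genes with a value on all 8 arrays, as a description with no test. Closest to Arntl stood 6720475J19Rik (r 0.96), Zfp386 (0.95), Pcsk2 (0.94), Taar9 (0.94) and Cd79a (0.92), and most opposed Nrg4 (-0.98), Mettl22 (-0.94), Rasal3 (-0.94), Myo1c (-0.94) and Vegfc (-0.93). Closest to Dbp stood Fam83e (0.98), A330070K13Rik (0.96), Asph (0.95), Hectd3 (0.95) and Adam2 (0.94), and most opposed Relb (-0.99), Rps13 (-0.99), Hmgxb3 (-0.98), 1700040D17Rik (-0.96) and Sec24b (-0.95). No clock gene was among these 20. Relb read 1.44 on miR-223KO 4 and -0.72 to 0.07 on the other arrays.

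The other genes of the loop gave no call either. Of 13 listed, 9 were tested, 0 passed the adjusted p and 0 had an unadjusted p under 0.05, with a median of -0.08 against -0.01 over all tested. Rora, an activator of Arntl, gave -0.30 (SE 0.20). Ciart, a repressor of the ARNTL pair, gave -0.17 (SE 0.19). Tipin, a partner of Timeless, gave 0.25 (SE 0.17), with -0.50 to -0.15 in WT and -0.15 to 0.12 in miR-223KO, which did not overlap (3.09% of all tested). The nearest values were -0.154 in WT 3 and -0.150 in miR-223KO 2.

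The kinases and ubiquitin ligase subunits that set the life of PER and CRY proteins were tested for 9 of 10 genes. None passed the adjusted p, 1 had an unadjusted p under 0.05 (4.67% of all tested), and the median was 0.05. That 1 was Csnk1a1, a casein kinase 1 gene, at -0.41 (SE 0.19, adjusted p = 0.98 in limma). Csnk2a1, a casein kinase 2 subunit, gave 0.42 (SE 0.23) and Btrc, a ligase subunit for PER, 0.21 (SE 0.20).

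Among output genes of the liver clock, 13 of 19 were tested and 0 passed the adjusted p. Of the 13, 4 had an unadjusted p under 0.05, against 4.67% of all tested, 3 with a positive difference (2.31% of all) and 1 with a negative one (2.36% of all), and the list's median was 0.06. Cyp7a1, which starts the conversion of cholesterol to bile acids, gave 0.92 (SE 0.31), with -1.49 to -0.11 in WT and -0.70 to 0.78 in miR-223KO. Lpin1, a phosphatidate phosphatase of triglyceride synthesis, gave 0.84 (SE 0.24) and Insig2, which holds SREBP proteins in the endoplasmic reticulum, 0.70 (SE 0.24), each from 3 values a group that did not overlap. Groups did not overlap for 3.09% of all tested, most of which had 4 values a group, and groups of 3 stand apart more easily. Elovl3, a fatty acid elongase, gave -0.73 (SE 0.24) with groups that overlapped. The 4 adjusted p-values were 0.98 in limma.

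Lists of genes that answer to cues that set or mask the clock were described the same way, and 0 genes passed in any of them. In the feeding list 8 of 12 were tested with a median of 0.12, and 2 had an unadjusted p under 0.05 (4.67% of all tested). These were Elovl6 at 0.89 (SE 0.28) and Pnpla5 at 0.56 (SE 0.20), both genes of lipid metabolism. Elovl6 had no value for WT 2 and miR-223KO 4. In the fasting list 8 of 13 were tested with a median of 0.06, and in the temperature and serum list 7 of 10 with a median of 0.06, with 0 under 0.05 in each. In the glucocorticoid list, which holds Per1 too, 9 of 11 were tested with a median of 0.03, and 1 had an unadjusted p under 0.05 (4.67% of all tested). That gene, Dusp1, a phosphatase induced by stress and glucocorticoids, gave -0.84 (SE 0.25, adjusted p = 0.98 in limma), with -0.18 to 1.13 in WT and -0.87 to -0.33 in miR-223KO.

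In whole liver, fewer cells of a type and less RNA per cell cannot be told apart, and markers were therefore read beside the clock genes. Alb, the main hepatocyte product, read 1.39 to 3.06 and so above the reference on all 8 arrays. All 5 tested hepatocyte markers had a negative difference, with a median of -0.22, and Alb gave -0.66 (SE 0.25, adjusted p = 0.98 in limma). Averaged over Alb and Apoa1, the 2 with a value on every array, the level was 1.49 to 2.73 in WT and 1.13 to 1.39 in miR-223KO. These averages did not overlap, though each gene's own values did, and how often averages of other genes stand apart was not counted. Apob, Ttr and Hnf4a, left out of the average, overlapped between the groups. Apob read 1.13 and 1.10 on miR-223KO 1 and 2, above its WT values of 0.64 to 1.01, and 0.45 and 0.11 on miR-223KO 3 and 4. The other 8 lists were averaged the same way, over 3 to 8 markers with a value on every array, and in 7 the ranges of the groups overlapped. In the endothelial list, with 7 of 8 markers averaged, the range was -0.14 to 0.00 in WT and 0.04 to 0.17 in miR-223KO. No marker of any list passed the adjusted p, and the part of cell makeup in the clock gene values was not tested.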

How the data were processed

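Per the labels, liver RNA was purified by Trizol and a column and copied to Cy5-labelled cDNA. The reference RNA carried Cy3 throughout, so dyes were never swapped. Per the file headers, arrays of design 014868 were read with Agilent Feature Extraction 12.0.3.1 (protocol GE2_1200_Jun14). The deposited scanner files hold spot and background intensity and, per the file headers, a log10 ratio of processed signals. The authors' table holds log2 ratios, which equalled log2 of processed Cy5 over Cy3 within 0.001 for at least 99.6% of probes on each array, and a log2 fold change with its linear fold, a ratio.

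Median signals were background-corrected here with normexp (offset 50) and normalised by loess within arrays in limma 3.58.1, spots with an outlier flag were left out and spots of a probe averaged. Probes entered the test with Cy5 well above background on 4 or more of 8 arrays and 3 or more values in each group, and a gene was represented by its brightest probe. WT and miR-223KO were compared with lmFit and eBayes (two-sided, Benjamini-Hochberg, threshold 0.05), a procedure tested on simulated data. Between 49.5% and 69.8% of spots per array were well above background in Cy5, 2% to 5.67% had an outlier flag and 0 were saturated. The number of arrays limits the precision, with a median SE of 0.21. The level of a marker list is the mean over its tested markers with a value on all 8 arrays, a choice made after seeing the data. Pairs of genes were compared by exact permutation tests in Python with scipy. The members and gene lists were chosen with earlier results of these data known. Of each list, the genes past the test or else up to 4 with the smallest p were eligible to be named. Alternatives were other background corrections, normalisations, filters and probe choices, slide or replicate number as a block, array weights, and each sample left out.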

Additional observations from a re-analysis of the deposited data

Results flagged for a closer look

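Among the 4 miR-223KO arrays, the Npas2 value of miR-223KO 2, at -0.19, lay far from the other 3, which read -0.61 to -0.56, by Dixon's test at the 95% level. It was the only one of 20 groups of 4 values (10 genes in each genotype) so marked, and chance alone marks about 1 in 20 groups.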

How the results depend on the processing

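No clock gene passed the test under any of the 20 alternatives run, and of 198 member values under alternatives 183 kept their direction and 15 did not. Slide or replicate blocks, Aquantile between arrays, filter changes, flagged spots kept and every probe on its own left the fold change of each tested member as it was. Such settings could not turn a direction, so the 183 overstate how far the directions were put to a test. The count of genes called in all, 2, became 4 with a normexp offset of 16, and 1 with the deposited table, with median centring, with flagged spots kept and with the mean of a gene's probes. With each sample left out in turn it ran from 2 to 3, and with the replicate block it was 2. Clock turned to -0.42 within slide 1, and ran from -0.0072 (without WT replicate 3) to 0.33 with a sample left out. Npas2 turned to 0.092 with median centring, 0.00053 with array weights, 0.37 within slide 1, and ran from -0.11 to 0.16 with a sample left out. Per1 turned to -0.13 within slide 1. Per2 turned to 0.081 with median centring and 0.15 with the mean of its probes. Cry1 turned to 0.11 in the deposited table and 0.10 within slide 2. The cause of these turns was not tested. Arntl, Per3, Nr1d1, Bhlhe41 and, where it had a value, Dbp kept a negative difference under every alternative, counting those that could not change it, with adjusted p-values of 0.82 to 1.00 in limma. Same-numbered WT and miR-223KO samples did not deviate together (r of -0.03 to 0.06 over genes). That check shows no shared signal but cannot show that samples were unpaired. The replicate block called 0 clock genes. Differences of dim probes, Arntl among them, are limited by signal over background. No pair of clock genes passed under any alternative for the correlations, of which 2 (flagged spots kept with 10 genes, and without miR-223KO replicate 4) were chosen after seeing the data.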
